A study of Mus musculus with 29 samples.

Results

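The CD150neg multipotent progenitor (CD150neg MPP) is a bone marrow cell that still makes all blood lineages but repopulates an irradiated host only for a limited time. RNA-Seq libraries from these cells were compared between mice with a heterozygous deletion at mouse band 5A3 (5A3+/del) and wild-type (WT) mice. The comparison uses every library that the sample labels give as CD150neg, 4 from 5A3+/del and 5 from WT mice, which are 9 of the 29 libraries of the series. The other 20 libraries come from CD150hi and CD150lo hematopoietic stem cells (HSC) of the same cohort. The deletion is a mouse counterpart of the chromosome 7q22 losses seen in human myelodysplasia and myeloid leukemia, and the question was which RNAs differ in progenitors that carry it, outside the deleted interval and outside oxidative phosphorylation.

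All mice were C57BL/6J by their labels, were untreated, and were 12.42 to 13.28 weeks old (WT) or 12.42 to 13.85 weeks old (5A3+/del). The deletion was made with Cre and loxP in embryonic stem cells at sites in Fbxl13 and Srpk2 and was passed through the germ line, so every cell of the mouse carries it and the intact chromosome remains. The line was then backcrossed to C57BL/6J. Cells were sorted as Kit+, lineage-negative, Sca-1+, CD41-, CD48- and CD150-, a gate that holds progenitors of several fates and no single cell type. Each library was amplified from a small amount of RNA before sequencing, which adds noise to rare RNAs. WT and 5A3+/del libraries with the same number come from different mice.

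Multipotent progenitors leave the stem cell state in steps. They lose CD150, gain the cytokine receptor Flt3, and begin to transcribe genes of several lineages at a low level before any lineage is chosen, which is known as lineage priming. Hox and other transcription factors, cytokine receptors and cell cycle genes set how long they remain multipotent.

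The libraries held 21229623 to 33164785 fragments in WT and 24596059 to 31440132 in 5A3+/del, as recovered from the steps between low FPKM values. FPKM are fragments scaled to exon length and to the fragments of the library. Between 18286 and 23588 genes were above 0 in WT and between 18443 and 21155 in 5A3+/del. Pearson's r of log2 values was 0.917 to 0.964 over 16 pairs of the same genotype and 0.905 to 0.97 over 20 pairs across genotypes (medians 0.936 and 0.937). Library WT 13 had an Xist level of 319 FPKM and a summed Y-linked level of 0.0237 FPKM, against at most 0.47 and at least 54.4 FPKM in the other 8 libraries. Both calls outside the interval are also given without it.

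The CD150 step of the gate was visible in the RNA. Normalized FPKM of Slamf1, which encodes CD150, was 0.142 ± 0.0313 (SD, 5 libraries) in WT CD150neg MPP and 0.109 ± 0.0558 (4 libraries) with the deletion, against 14.4 ± 1.04 (5 libraries) in WT CD150hi HSC. It rested on 1, 1, 16, 27 and 31 fragments in WT and 1, 1, 2 and 25 with the deletion. Flt3 showed the reverse order, with 50.7 normalized FPKM in WT MPP, 45.2 in 5A3+/del MPP and 2.87 in WT CD150hi HSC. Kit, the stem cell factor receptor, averaged 145 and 157, and Cd34 averaged 166 and 176. The log2 fold changes (5A3+/del over WT) of Kit, Cd34, Flt3 and Slamf1 were 0.12, 0.09, -0.16 and -0.04, none past the test. Cd48, whose protein the gate excludes, averaged 6.29 normalized FPKM in WT MPP and 6.70 in 5A3+/del MPP, against 0.341 in WT CD150hi HSC. Its fragments were 125 to 415 in WT MPP and 93 to 284 in 5A3+/del MPP. The CD48 step was thus not visible in the RNA. Itga2b, which encodes CD41, averaged 1.72 and 1.66 in MPP and 2.54 in WT CD150hi HSC.

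Ly6a, which encodes Sca-1, had normalized FPKM of 112, 126, 201, 174 and 115 in WT and 206, 215, 220 and 127 in 5A3+/del. All 5A3+/del libraries but one were above all WT libraries. The log2 fold change was 0.40 ± 0.19 (SE; limma unadjusted p = 0.0413), and it was 0.61 in CD150hi and 0.55 in CD150lo HSC.

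Markers of other cells were read as summed FPKM, and their part in the results was not tested. The 6 B cell markers, led by Cd79b (up to 15.4 FPKM), summed to 8.84 to 14.9 in WT and 9.45 to 15.6 in 5A3+/del. Ms4a1 was at 0 in all 9 libraries. The 9 T and NK cell markers summed to 2.43 to 6.06 and 3.22 to 6.73, with Ncr1 at 0 throughout. The 5 mast cell and basophil markers summed to 0.195 to 2.00 and 1.04 to 4.03, with Prss34 at 0. The 7 macrophage and dendritic cell markers summed to 0.966 to 2.64 and 0.388 to 7.87. The 7 red cell markers, led by Hbb-b2, reached 23.9 to 105 and 24.8 to 63.1. The 6 megakaryocyte markers, led by Pf4 (up to 34.7 FPKM), reached 25.5 to 55.6 and 23.3 to 42.0, with Gp6 at 0. The 9 neutrophil and monocyte markers, which progenitors also express, were at 225 to 288 and 186 to 502. The 7 endothelial and stromal markers summed to 12.7 to 17.9 and 11.6 to 21.9, with a log2 fold change of 0.58 for Cdh5 (limma unadjusted p = 0.0314). Cdh5 was near the floor, with 0 to 33 fragments in WT and 2 to 144 in 5A3+/del. Its 5A3+/del values were 1.48, 1.30, 0.248 and 0.00315 normalized FPKM, and the genotypes overlapped. Eosinophil markers summed to 0 to 10.1 and 0 to 0.166.

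The deletion itself was read first in the genes between the outer ends of Fbxl13 and Srpk2 (mm9 chr5:20989665-23182266, 2.19 Mb), of which 12 were tested. Mll5, which encodes a SET domain protein, had normalized FPKM of 55.9, 55.4, 47.0, 48.4 and 53.5 in WT and 29.7, 23.6, 26.7 and 23.8 in 5A3+/del. No 5A3+/del library reached the lowest WT library, and the mean was 49.9% of WT (log2 fold change -0.98 ± 0.12, limma adjusted p = 0.000234). Dnajc2, Pmpcb, Orc5 and 5031425E22Rik also fell, to 44.3%, 47.5%, 45.8% and 37.0% of WT. Armc10 at 46.4% and Napepld at 15.5% missed the threshold (limma adjusted p = 0.108 and 0.0725). Psmc2, a proteasome ATPase, was at 5.48 to 8.42 normalized FPKM in WT and 3.34 to 5.53 in 5A3+/del (64.0% of WT, limma adjusted p = 0.9998). The pseudogenes Gm15715, Gm15421 and Rpl17-ps5 were at 16.3%, 75.7% and 107%, and Srpk2, at the edge, at 112%, none past the test. The genotypes did not overlap for 8 of the 12 genes, where 1.51% of all genes tested had no overlap.

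Outside the interval few genes passed the test. Across 15409 genes, 7 (0.0454%) had a Benjamini-Hochberg adjusted p under 0.05 in limma, of which 5 lay in the interval. The 2 others were AC127419.1, annotated as a microRNA gene, which fell, and the pseudogene Gm12104, which rose. No protein-coding gene outside the interval passed. An unadjusted p under 0.05 was found for 658 genes (4.27%), with 351 higher (2.28%) and 307 lower (1.99%) in 5A3+/del. Over all genes tested, the genotypes did not overlap for 233 (1.51%), of which 111 were higher and 122 lower. Of these, 8 lay in the interval. When only the 9 CD150neg MPP libraries were fitted, 0 genes passed in limma, those of the interval included, and 732 had an unadjusted p under 0.05.

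The typical difference was small. The median absolute log2 fold change was 0.144, and the median of the signed values was -0.001. A log2 fold change of at least 1 in either direction was seen for 158 genes, of which 27 were protein coding (27 of 12262, 0.220%). The share was 13.0% among 385 microRNA genes and 9.90% among 202 snoRNA genes, both of which are short and give few fragments. The largest value belonged to Mir32 (-2.94), which did not pass.

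How small a difference could have been seen depends on the level. The half-width of the 95% confidence interval of the log2 fold change had a median of 0.597 below 1 normalized FPKM, 0.540 from 1 to 5, 0.397 from 5 to 20, 0.320 from 20 to 100 and 0.254 above 100. For 12889 genes (83.7%) the whole interval lay within 1 of 0 on this scale. The values are log2(FPKM + 1), which compresses low levels, so an interval within these bounds does not limit the change of FPKM itself to 2-fold in genes of a few FPKM or less.

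**Figure D1:**
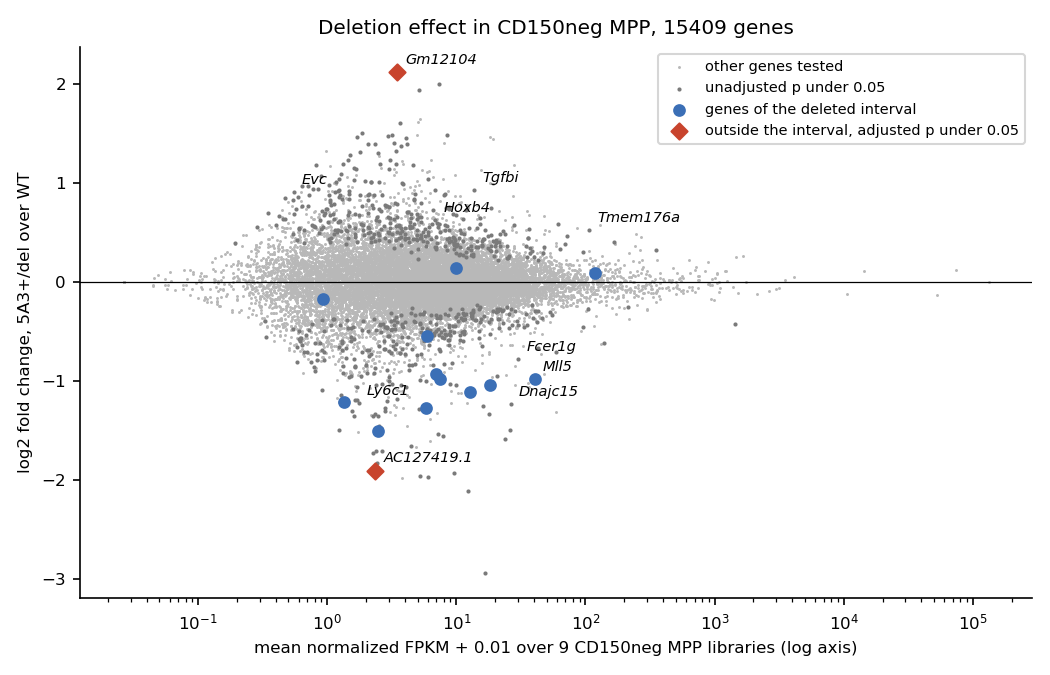
The log2 fold change of 5A3+/del over WT in CD150neg MPP is plotted against the mean normalized FPKM over the 9 libraries (log axis) for 15409 genes. Blue points are the 12 tested genes of the deleted interval, most of them near -1, and red diamonds are the only 2 genes outside it with an adjusted p under 0.05, Gm12104 at 2.12 and AC127419.1 at -1.90.

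The first of these genes is short and repetitive. AC127419.1 is annotated on mm9 chr8:108185463-108185543 on the minus strand, in an intron of Ctcf, which is transcribed from the other strand and encodes the CCCTC-binding insulator protein. The 81 bases of mm9 are printed here 5′ to 3′ on the gene's strand.
AC127419.1: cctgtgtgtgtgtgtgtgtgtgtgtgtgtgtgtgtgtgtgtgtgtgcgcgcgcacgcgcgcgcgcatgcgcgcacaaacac
The run of 22 TG repeats covers 44 bases, 10 CG pairs follow it, and mm9 holds 67445 runs of TG or CA that are at least as long.

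AC127419.1 had 12, 8, 7, 12 and 7 fragments in the WT libraries and 2, 0, 0 and 1 in the 5A3+/del libraries. All WT libraries were above all 5A3+/del libraries. In total, 46 fragments stood against 3, which after scaling to depth is 11.4-fold lower in 5A3+/del (exact 95% interval 3.66 to 57.3, counting error only, since amplified fragments are not independent molecules). Without 5A3+/del 11, which held 2 of the 3, the ratio was 26.4 (4.51 to 1070). Without WT 11 it was 9.86 (3.1 to 50.2). Normalized FPKM were 6.36, 3.05, 2.84, 4.80 and 2.68 in WT and 1.07, 0.0209, 0.00243 and 0.240 in 5A3+/del, and the log2 fold change was -1.90 ± 0.32 (limma adjusted p = 0.0123). In CD150hi HSC it had 1 to 4 fragments in WT and 1 to 11 in 5A3+/del, and in CD150lo HSC 0 to 4 and 1 to 4. Ctcf averaged 27.2 ± 1.98 normalized FPKM in WT and 24.5 ± 3.40 in 5A3+/del (log2 fold change -0.15, unadjusted p = 0.238). The call was lost in 5 of 13 other ways of processing the table, among them limma's voom on fragments (limma adjusted p = 0.9998). It was also lost without 5A3+/del 12, 5A3+/del 13 or WT 11 (limma adjusted p = 0.0782, 0.0827 and 0.0604), and it held without WT 13 (0.0198).

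Gm12104 is annotated on mm9 chr11:30806942-30807920 on the minus strand and is a copy of the messenger RNA of Pdlim1, which encodes a PDZ and LIM domain protein of the actin cytoskeleton. BLAST aligned 976 bases at 89.1% identity with 100 mismatches. How fragments that match both genes were counted is not given in the sources used here. The first 120 bases of the gene are shown with the 16 bases that differ from Pdlim1 in capitals.
Gm12104: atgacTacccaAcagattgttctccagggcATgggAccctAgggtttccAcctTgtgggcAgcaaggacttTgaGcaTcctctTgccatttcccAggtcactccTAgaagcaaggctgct

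Gm12104 had 2, 1, 0, 57 and 26 fragments in WT and 437, 119, 150 and 46 in 5A3+/del. The WT libraries ranged from none to more than the lowest 5A3+/del library, so the genotypes overlapped. Normalized FPKM were 0.259, 0.118, 0.0115, 1.73 and 0.697 in WT and 16.4, 4.58, 5.87 and 1.45 in 5A3+/del, with a log2 fold change of 2.12 ± 0.40 (limma adjusted p = 0.0262). Pdlim1 averaged 20.1 ± 5.33 and 22.2 ± 2.65 normalized FPKM (log2 fold change 0.16). The call was lost in 7 of 14 other ways of processing (limma adjusted p up to 0.809). It held without 5A3+/del 14 or WT 14 (0.00139 and 0.0142) and was lost without any one of the other 7 libraries, with adjusted p from 0.0537 without WT 15 to 0.228 without 5A3+/del 11, and 0.138 without WT 13.

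Among protein-coding genes outside the interval, the 5 nearest to the threshold were Dnajc15, Ly6c1, Fcer1g, Gdap2 and Tgfbi, with limma adjusted p between 0.186 and 0.218. None of the genes in the following paragraphs passed, and their values are given as ranked by unadjusted p among named genes of at least 2 normalized FPKM. The background for them is the 4.27% of all genes with an unadjusted p under 0.05. For a lack of overlap, it is the 1.51% of all genes in which the genotypes were separate.

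Dnajc15, a J-domain cochaperone of the inner mitochondrial membrane, had normalized FPKM of 66.4, 34.4, 31.2, 27.4 and 20.5 in WT and 8.50, 12.6, 17.2 and 18.3 in 5A3+/del. The ranges did not overlap, and the WT libraries were spread over more than 3-fold. The log2 fold change was -1.23 ± 0.28 in MPP, against -0.34 in CD150hi and -0.25 in CD150lo HSC. Gdap2, a gene of little-known function, had 6.59, 7.61, 6.14, 4.31 and 4.67 in WT and 2.24, 2.31, 2.79 and 4.12 in 5A3+/del. Its log2 fold change was -0.83 ± 0.19, with 0.08 and 0.19 in the HSC populations.

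Fcer1g, the common gamma chain of Fc receptors, had normalized FPKM of 40.4, 39.5, 41.2, 32.8 and 31.0 in WT and 24.1, 21.3, 22.5 and 17.1 in 5A3+/del. No 5A3+/del library reached the lowest WT library, and the log2 fold change was -0.77 ± 0.18 (limma adjusted p = 0.215). It was -0.65 in CD150hi and -0.41 in CD150lo HSC. Ly6c1, a Ly6 surface protein of monocytes and endothelium, had 2.60, 3.09, 4.76, 2.06 and 1.09 in WT and 0.584, 0.477, 0.270 and 0.762 in 5A3+/del, from 32 to 124 and 7 to 23 fragments. Its log2 fold change was -1.22 ± 0.27 in MPP and 0.05 and 0.01 in CD150hi and CD150lo HSC.

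Tgfbi, an extracellular matrix protein induced by TGF-beta, had the smallest unadjusted p among higher protein-coding genes that were named. Its normalized FPKM were 9.53, 10.8, 10.6, 10.5 and 5.83 in WT and 21.8, 22.2, 17.0 and 14.3 in 5A3+/del, so that every 5A3+/del library was above every WT library. The mean was 199% of WT (log2 fold change 0.93 ± 0.21, limma adjusted p = 0.218). The log2 fold change was 0.91 in CD150lo and 0.01 in CD150hi HSC. The 22 tested genes of TGF-beta and SMAD signaling themselves held no member at an unadjusted p under 0.05, with a median log2 fold change of -0.02. Eng, a TGF-beta co-receptor and the most abundant of them, had a log2 fold change of 0.05.

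Other higher genes were scattered over functions. Slc9a3r2, a PDZ scaffold of membrane transporters, had normalized FPKM of 3.39, 1.55, 2.07, 3.12 and 1.84 in WT and 5.83, 5.44, 6.25 and 5.00 in 5A3+/del (log2 fold change 0.99 ± 0.26). Gstm5, a glutathione transferase, had 7.25, 4.57, 4.59, 4.93 and 5.71 in WT and 16.7, 11.8, 8.05 and 8.06 in 5A3+/del (0.88 ± 0.23). Neither overlapped, and in the HSC populations the log2 fold changes of Gstm5 had the other sign, -0.33 and -0.60. Selm, a selenoprotein, had 0.763, 1.61, 1.73, 1.57 and 1.25 in WT and 4.56, 5.23, 4.17 and 1.84 in 5A3+/del (1.01 ± 0.27). Dynlt1b, a dynein light chain, was at 5.96 to 6.97 in WT and 8.76 to 14.0 in 5A3+/del (0.74 ± 0.20), and at 0.59 on the log2 scale in CD150hi HSC. Tmem176a, a membrane protein, was at 77.7 to 107 in WT and 96.2 to 164 in 5A3+/del (0.53 ± 0.13), with 0.33 and 0.31 in the HSC populations. Nit1 and Pign had log2 fold changes of 0.51 and 0.45, each without overlap.

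Among the lower genes, Hdac9, a class IIa histone deacetylase, had normalized FPKM of 2.00, 4.40, 1.86, 1.29 and 2.01 in WT and 1.42, 0.350, 0.830 and 0.606 in 5A3+/del. One 5A3+/del library lay above the lowest WT library. The log2 fold change was -0.85 ± 0.21, and it was -0.40 in CD150hi and -0.51 in CD150lo HSC. Pygm, the muscle isoform of glycogen phosphorylase, had 3.46 to 5.37 in WT and 2.08 to 2.68 in 5A3+/del (-0.72 ± 0.18). Bod1l, which protects stalled replication forks and lies on chromosome 5, had 16.3 to 21.3 and 8.51 to 15.1 (-0.64 ± 0.18). Ccdc55 had 11.2 to 14.3 and 5.15 to 9.74 (-0.58 ± 0.17).

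**Figure D2:**
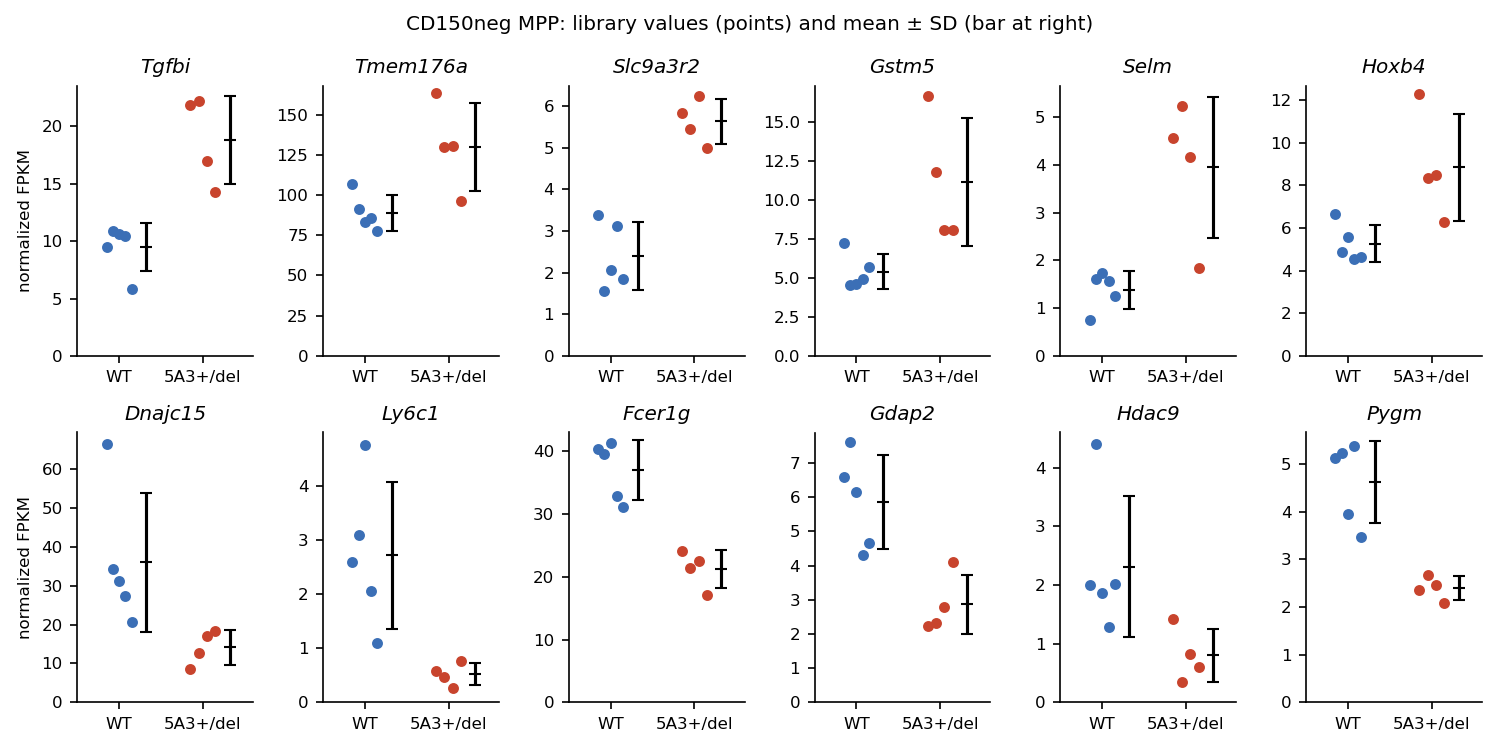
Normalized FPKM of 12 genes in each CD150neg MPP library, WT in blue (5 libraries) and 5A3+/del in red (4 libraries), with the mean ± SD as a bar at the right of each group. Tgfbi, Slc9a3r2, Gstm5, Selm, Dnajc15, Ly6c1, Fcer1g, Gdap2 and Pygm show no overlap between the genotypes, and none of the 12 passed the adjusted test.

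Pathways were read from 51 gene lists by their counts and medians, and 0 of the 51 held a gene with an adjusted p under 0.05. The lists were written without the genes of the interval, so Orc5 is not counted in DNA replication, Psmc2 in the proteasome or Mll5 among methyltransferases. Medians are small and depend on single libraries, as 24 of the 50 lists with a median changed its sign when a library was left out. In 16 lists no member had an unadjusted p under 0.05 either. The values for all genes, to be read beside each list, are 2.28% higher, 1.99% lower and a median log2 fold change of -0.001.

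Stem cell and multipotency genes showed no common shift. Among 27 stem cell genes 2 were higher, Hoxb5 and Tie1, and 0 lower at an unadjusted p under 0.05, with a median of -0.01. The 8 multipotent progenitor genes had no member at that p and a median of 0.11. The 7 heptad factors, which together bind stem cell enhancers, ranged from -0.14 to 0.09. Lmo2, the most abundant of them, had normalized FPKM of 396, 396, 349, 428 and 421 in WT and 354, 428, 351 and 401 in 5A3+/del. Mecom, Hlf and Procr had log2 fold changes of -0.20, -0.09 and 0.26.

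Lineage priming was examined in the same way. Of 21 lymphoid genes tested, 0 were higher and 1 was lower, with a median of -0.04. That gene was Ccr9, a chemokine receptor of thymus-seeding cells, at 2.49, 3.56, 1.16, 4.36 and 2.69 normalized FPKM in WT and 1.30, 0.494, 1.20 and 0.938 in 5A3+/del (log2 fold change -0.91 ± 0.29, unadjusted p = 0.0043). The genotypes overlapped through WT 13. Dntt, which adds bases at antigen receptor joints and marks lymphoid priming, was at 10.3, 8.05, 13.2, 13.1 and 20.4 in WT and 2.67, 13.2, 9.28 and 8.75 in 5A3+/del. The lowest value was that of 5A3+/del 11 and the highest that of WT 15. The genotypes overlapped, and the log2 fold change was -0.66 ± 0.39.

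Of 24 granulocyte and monocyte genes, 1 was higher and 1 lower, with 16 values above 0, a median of 0.10 and summed FPKM of 467 to 522 in WT and 509 to 800 in 5A3+/del. The higher one was Prtn3, a serine protease of neutrophil granules, at 22.4, 26.9, 39.1, 33.0 and 30.8 in WT and 31.8, 58.3, 42.6 and 36.6 in 5A3+/del (0.45 ± 0.19), and the lower one was Ly6c1. Mpo, the myeloperoxidase of the same granules, differed by 0.12 ± 0.67. The 15 erythroid genes had no member at an unadjusted p under 0.05 and a median of 0.03. Of 19 megakaryocyte genes 2 were higher, Mmrn1 (0.36) and Rab27b (0.39), and the median was 0.02. Pf4, a platelet chemokine, had a log2 fold change of -0.27 ± 0.34.

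The Hox cluster held 4 higher and 0 lower genes of 15 tested, with a median of 0.08. Hoxb4, a homeobox factor that expands stem cells when overexpressed, had normalized FPKM of 6.66, 4.89, 5.56, 4.54 and 4.65 in WT and 12.3, 8.32, 8.49 and 6.28 in 5A3+/del. All 5A3+/del libraries but one were above all WT libraries (log2 fold change 0.63 ± 0.17, unadjusted p = 0.0012). Hoxb5 was at 0.753 to 2.21 and 2.12 to 4.37 (0.70 ± 0.23). Hoxa5 and Hoxb8 followed at 0.48 and 0.39, both with overlap. Hoxb8 was near the floor, with 0 to 2 fragments in WT and 1 to 78 in 5A3+/del. In CD150hi HSC the values of Hoxb4, Hoxb5, Hoxa5 and Hoxb8 were -0.06, 0.20, -0.15 and 0.04. In CD150lo HSC they were 0.145, 0.26, -0.32 and 0.10.

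Mll5 is itself a member of the H3K4 methyltransferase family by name. The 19 other H3K4 methyltransferases and partners held no member at an unadjusted p under 0.05, and their median was -0.01. Mll1, which maintains Hox transcription, had 52.0, 50.9, 44.0, 43.2 and 40.2 normalized FPKM in WT and 50.4, 36.0, 46.9 and 45.3 in 5A3+/del. The 32 Polycomb genes had a median of 0.00, with Phc2 higher (0.45). The 16 DNA methylation enzymes had a median of 0.01, with Gadd45a lower (-0.68).

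Cytokine receptors were 2 higher and 0 lower of 32, with a median of 0.09. Il6ra, the interleukin-6 receptor, had normalized FPKM of 8.83, 18.1, 12.0, 11.8 and 10.3 in WT and 26.8, 18.4, 16.4 and 14.2 in 5A3+/del (0.59 ± 0.21), and Il3ra had 0.894 to 3.14 and 2.54 to 7.38 (0.81 ± 0.36). Both overlapped. The 27 homing and adhesion genes had a median of 0.08 and 1 lower member, Ccr9, the 24 Notch and Wnt genes -0.05 with no member at an unadjusted p under 0.05, and the 7 hedgehog genes 0.17, with 2 higher, Evc and Evc2.

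Interferon response genes were 4 higher and 0 lower of 41, or 9.76%, against 4.27% of all genes in either direction. They were Isg20 (0.53), Ifit2 (0.51), Iigp1 (0.42) and Ifitm1 (0.32). Ifitm1, an antiviral membrane protein, had 324, 364, 274, 295 and 308 normalized FPKM in WT and 450, 444, 364 and 318 in 5A3+/del, with overlap. The list's median was 0.08 and fell between -0.02 and 0.19 when single libraries were left out. Antigen presentation genes held no member at an unadjusted p under 0.05, although 18 of 20 had a log2 fold change above 0, with a median of 0.12 (0.06 to 0.22 when single libraries were left out). The 8 Gimap genes, GTPases of lymphoid cells, all had values above 0, with a median of 0.23. Gimap4 was the member with an unadjusted p under 0.05 (0.69 ± 0.32).

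Protein folding genes had mostly negative values. Of 30 heat shock and chaperone genes 0 were higher and 3 lower at an unadjusted p under 0.05, and 26 had a value below 0. The median was -0.15, and it stayed between -0.20 and -0.12 when single libraries were left out and at -0.14 and -0.13 without quantile normalization and with median scaling. Dnajb1, the J-domain partner of Hsp70, had normalized FPKM of 113, 58.5, 69.2, 55.5 and 60.5 in WT and 30.6, 41.2, 45.6 and 52.9 in 5A3+/del. The genotypes did not overlap, and the log2 fold change was -0.71 ± 0.21 (unadjusted p = 0.00251, limma adjusted p = 0.796). Hsp90aa1, the inducible Hsp90, was at 85.2 to 139 in WT and 64.2 to 99.7 in 5A3+/del (-0.45 ± 0.16), and Cct8, a subunit of the cytosolic chaperonin, at 37.9 to 43.9 and 31.2 to 38.9 (-0.23 ± 0.10). In CD150hi and CD150lo HSC, Dnajb1 had log2 fold changes of -0.42 and -0.30.

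The unfolded protein response list had 0 higher and 3 lower of 27 and a median of -0.09 (-0.14 to -0.04 when single libraries were left out). Asns, Ern1 and Dnajc3 were the 3, at -0.67, -0.30 and -0.29. Immediate early genes, which respond to stress within minutes, had 0 higher and 1 lower of 35, 24 values below 0 and a median of -0.14, which moved between -0.27 and -0.05 when single libraries were left out. Their one member at an unadjusted p under 0.05 was Nfkbiz (-0.45). Proteasome subunits had 1 higher of 47 (Psmd12, 0.27) and a median of -0.03. Mitochondrial import had 1 lower of 33 (Timm17a, -0.34) and a median of -0.06.

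Cell cycle lists had few members past an unadjusted p of 0.05. Replication-dependent histones, which are made in S phase, had a median of 0.24, with 55 of 62 above 0 and 1 higher at that p, Hist1h2bf (0.75 ± 0.32). Their summed FPKM were 1126 to 1555 in WT and 994 to 1955 in 5A3+/del, so the lowest sum was in 5A3+/del. Of all 15409 genes tested, 7671 were above 0. Histone genes of one class are near-identical, and how fragments that match several copies were counted is not given in the sources used here. Mitosis genes had a median of 0.15, with 29 of 36 above 0 and 1 higher, Kif2c (0.53). DNA replication genes had 2 higher of 44, Mcm10 (0.55) and Tyms (0.36), and a median of 0.03, which changed sign when single libraries were left out (-0.04 to 0.10). G1 cyclins, CDKs and inhibitors had 1 higher of 20, Ccnd1, at 7.03 to 9.66 normalized FPKM in WT and 10.3 to 12.2 in 5A3+/del, and a median of 0.10. The median of the mitosis list ranged from 0.03 to 0.29 when single libraries were left out.

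Genes of DNA repair had 2 higher of 46, Palb2 (0.45) and Mre11a (0.38), and a median of 0.04. The p53 targets had 1 higher, Psrc1, and 2 lower, Ei24 and Gadd45a, of 24. The 15 BCL2 family genes and the 46 myelodysplasia and leukemia genes had no member at an unadjusted p under 0.05, with medians of -0.03 and -0.04.

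Translation and metabolism were close to 0. The 83 cytosolic ribosomal protein genes had a median of -0.03 and a range of -0.25 to 0.21, with Rplp2 the only member at an unadjusted p under 0.05 (lower). The 46 translation factors had none and a median of -0.02. The 74 mitochondrial ribosomal protein genes had 2 higher (Mrpl14, Mrps23) and 1 lower (Mrpl47), and a median of -0.05. The 30 glycolysis and pentose phosphate genes had 1 lower (Pfkp, -0.45) and a median of 0.03. The 39 antioxidant genes had 2 higher (Gstm5, Gsto1) and 1 lower (Gss), with a median of 0.04. FoxO, LKB1 and mTOR genes had 1 higher of 28 (Deptor, 0.55), autophagy and lysosome genes 1 higher of 34 (Mcoln1, 0.46), imprinted growth control genes 1 higher of 15 (Rian, 0.68) and ABC transporters 1 lower of 28 (Abcd3, -0.35).

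**Figure D3:**
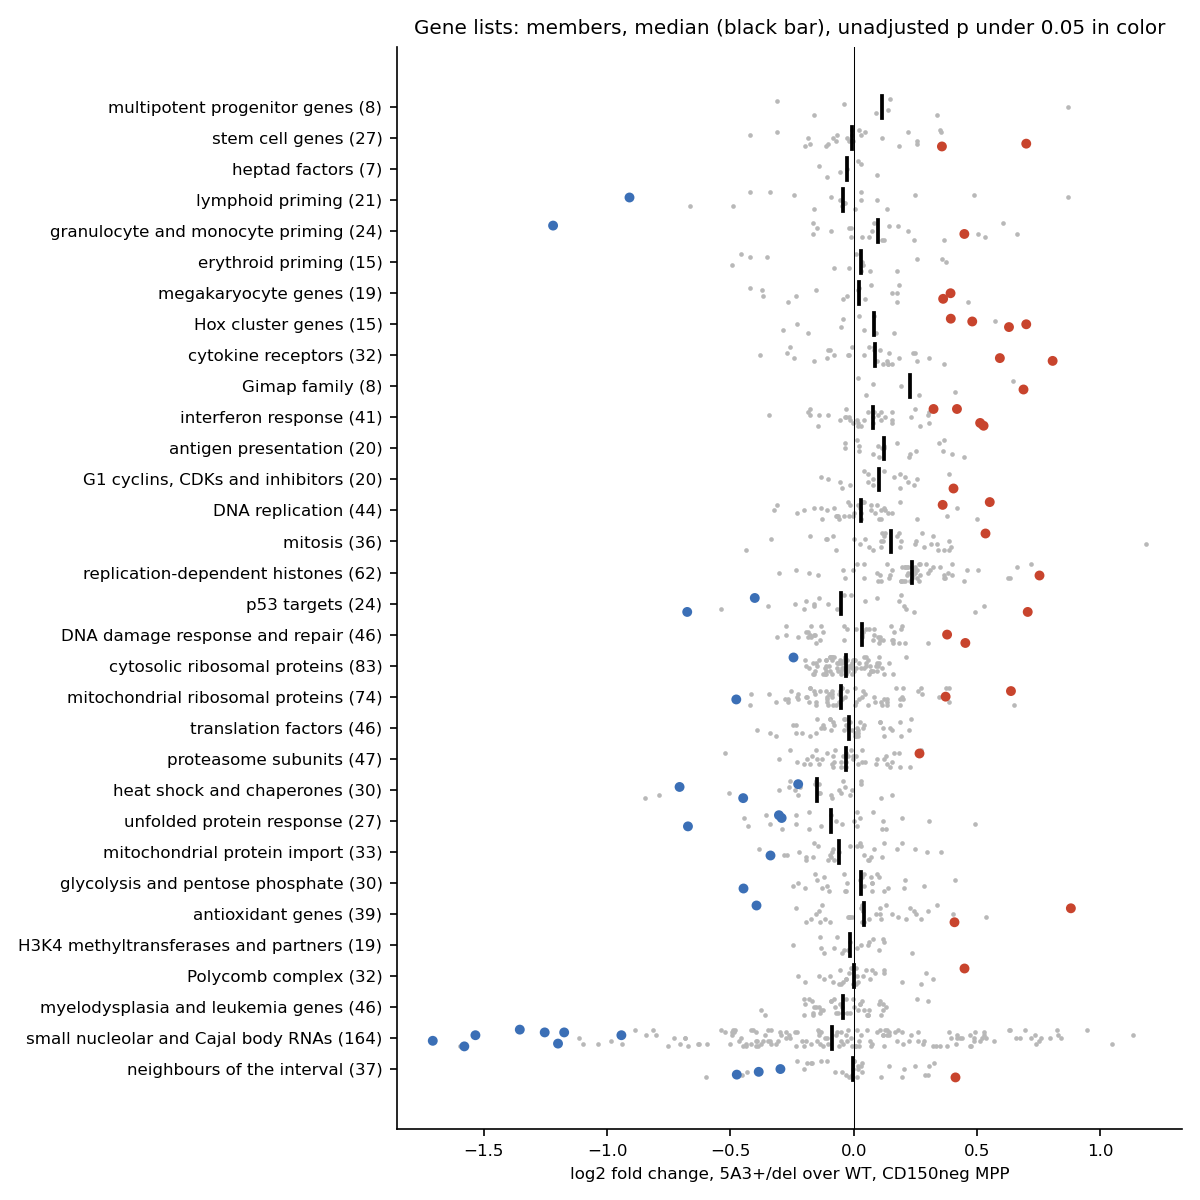
Log2 fold changes (5A3+/del over WT, CD150neg MPP) of the tested members of the gene lists, with the number tested in brackets, the median as a black bar, and members with an unadjusted p under 0.05 in red (higher) or blue (lower). Histone and mitosis medians lie at 0.24 and 0.15, chaperones at -0.15, and the ribosomal protein list is narrow around -0.03.

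Small nucleolar and Cajal body RNAs guide the chemical modification of ribosomal and spliceosomal RNA, and most are cut from introns of host genes. Of 189 listed, 164 were tested. At an unadjusted p under 0.05, 0 were higher and 8 lower (4.88%), and the median was -0.09. By family, 5 of 76 C/D box, 2 of 79 H/ACA box and 1 of 9 Cajal body RNAs were lower. These RNAs are poorly measured, as the 95% interval lay within 1 of 0 on the log2 scale for 19 (11.6%) of them, against 83.7% of all genes.

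The sequences of 4 of the 8 are shown to set apart the 2 box families, taken from mm9 on the gene's strand with the box motifs that were found in capitals (TGATGA and CTGA of C/D box RNAs, ACA of H/ACA box RNAs).
Snora30: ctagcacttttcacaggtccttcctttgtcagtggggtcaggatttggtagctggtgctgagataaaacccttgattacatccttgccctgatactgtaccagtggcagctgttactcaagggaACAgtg
Snord88a: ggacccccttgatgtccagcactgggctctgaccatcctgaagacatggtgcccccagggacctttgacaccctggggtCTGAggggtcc
Snord69: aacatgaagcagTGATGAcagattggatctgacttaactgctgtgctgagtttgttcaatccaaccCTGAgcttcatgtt
Snord111: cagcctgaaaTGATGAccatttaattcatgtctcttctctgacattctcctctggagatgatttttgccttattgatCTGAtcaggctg

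Snora30 (mm9 chr7:134671388-134671517, plus strand) had 117, 200, 48, 123 and 153 fragments in WT and 18, 20, 52 and 69 in 5A3+/del. Only WT 13 fell among the 5A3+/del libraries. The log2 fold change was -1.58 ± 0.43 (limma adjusted p = 0.584), against 0.56 and -0.11 in CD150hi and CD150lo HSC. Snord88a, Snord69 and Snord111 had log2 fold changes of -1.71, -1.25 and -1.53. Snord88a did not overlap between the genotypes and the other pair did.

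For Snora30 and Scarna17 no host gene was found in the annotation. The host genes of 5 others had log2 fold changes between -0.21 and 0.07. Sf3b3, a splicing factor and host of Snord111, had a log2 fold change of -0.02, and Gnl3, a nucleolar GTPase and host of Snord69, -0.21. The host of Snord88a, 2410002F23Rik, was at 0.07. Rpl4, the host of SNORD16, averaged 1052 ± 16.2 normalized FPKM in WT and 1054 ± 140 in 5A3+/del, while SNORD16 had a log2 fold change of -0.94 ± 0.42. Ncl, the host of Snord82, was at -0.15 and Snord82 at -1.17. SNORA11 and Scarna17 were the remaining members, at -1.20 and -1.35.

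A pair of annotated microRNA genes came up by the same ranking. Their mature forms are shown from RefSeq (GRCm38.p6) with the seed, bases 2 to 8, in capitals. They share no seed, and the libraries were not made to measure mature microRNA, so the fragments are those that fall on the annotated precursor.
mmu-miR-128-1-5p: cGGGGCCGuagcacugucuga
mmu-miR-128-3p: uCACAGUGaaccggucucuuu
mmu-miR-1951: gUAGUGGAgacugguguggcua
Mir128-1, in an intron of R3hdm1, had 6, 31, 5, 5 and 3 fragments in WT and 0, 1, 0 and 1 in 5A3+/del, a depth-scaled ratio of 18.6 (exact 95% interval 4.88 to 158, counting error only). WT 12 held 31 of the 50 WT fragments, and without it the ratio was 8.96 (2.16 to 79.3). Without 5A3+/del 12, which held 1 of 2, it was 28.3 (4.85 to 1140). R3hdm1 itself was at 0.15 on the log2 scale. In CD150hi HSC, Mir128-1 had 0 to 4 fragments in WT and 0 to 11 in 5A3+/del. In CD150lo HSC it had 1 to 6 in WT and 0 to 6 in 5A3+/del. Mir1951, in an intron of BC052040, had 1, 0, 0, 2 and 0 fragments in WT and 22, 0, 6 and 7 in 5A3+/del, with one 5A3+/del library at none. Its ratio was 15.7 (4.95 to 79.8), with 7.54 (2.07 to 41.3) without 5A3+/del 11 and 37.5 (6.30 to 1520) without WT 14, and BC052040 was at 0.48.

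Because the deletion was made in embryonic stem cells and then backcrossed, genes that flank it on chromosome 5 were read apart from the rest. On that chromosome, 938 genes outside the interval were tested, with 19 higher and 18 lower at an unadjusted p under 0.05 (3.95%), against 4.23% on all other chromosomes. The share was 7.80% (10 higher, 7 lower) for the 218 genes within 20 Mb of the interval and 9.80% (2 higher, 3 lower) for the 51 within 5 Mb, and none of these had an adjusted p under 0.05. Fam126a, 0.239 Mb beyond the interval, had normalized FPKM of 6.90, 5.81, 6.54, 5.66 and 5.79 in WT and 5.20, 3.82, 5.31 and 4.99 in 5A3+/del (log2 fold change -0.30). Nupl2 (0.489 Mb) and Gnai1 (3.123 Mb on the other side) were lower at -0.47 and -0.39, and Nub1 (1.009 Mb) was higher at 0.41. Tyms, 7.202 Mb away, had 0.36 in MPP and 0.41 and 0.40 in CD150hi and CD150lo HSC. Flanking embryonic stem cell sequence and the deletion cannot be told apart in these mice.

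**Figure D4:**
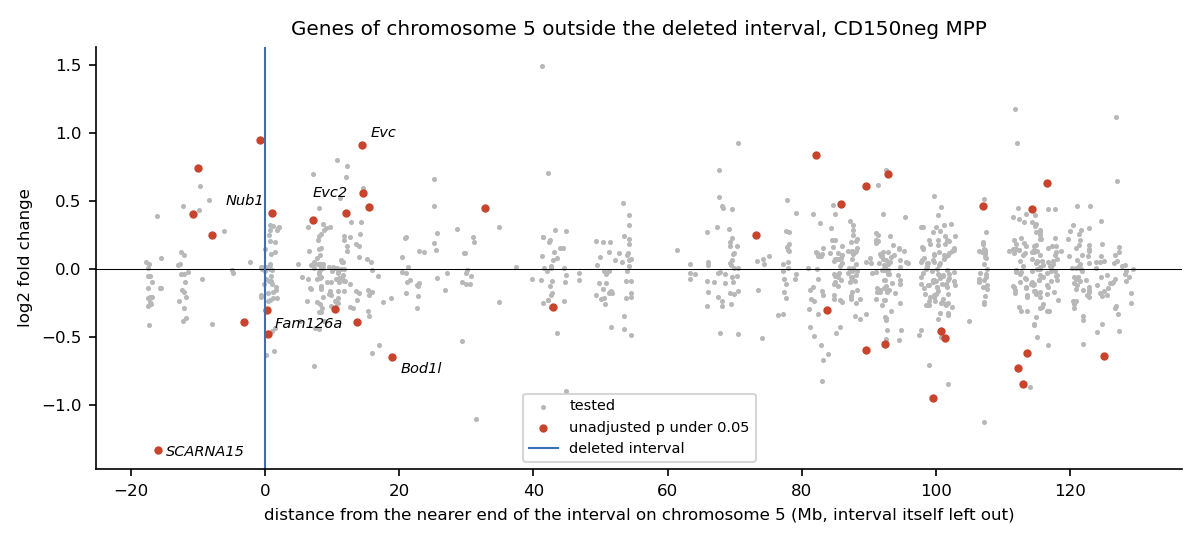
Log2 fold change (5A3+/del over WT, CD150neg MPP) of the 938 tested genes of chromosome 5 outside the deleted interval, against the distance in Mb from its nearer end. The vertical line marks the interval and red points have an unadjusted p under 0.05, among them Evc and Evc2 side by side at 14.5 Mb and Bod1l at 18.997 Mb.

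Evc and Evc2, both on this chromosome, were higher in every 5A3+/del library than in any WT library. They encode partner proteins at the base of the primary cilium that are needed for hedgehog signaling. They are transcribed away from each other, with 1583 bases between their starts in mm9, 14.5 Mb beyond the interval. Whether they share control of transcription was not tested. Their promoters, which do not overlap, are shown because both genes differed in the same direction and start near each other. They are 250 bases before to 50 after each start, from RefSeq on GRCm38.p6 (Evc chr5:37336832-37337131, minus strand, and Evc2 chr5:37338228-37338527, plus strand), with GGGCGG and CCAAT, searched on both strands, in capitals.
Evc promoter: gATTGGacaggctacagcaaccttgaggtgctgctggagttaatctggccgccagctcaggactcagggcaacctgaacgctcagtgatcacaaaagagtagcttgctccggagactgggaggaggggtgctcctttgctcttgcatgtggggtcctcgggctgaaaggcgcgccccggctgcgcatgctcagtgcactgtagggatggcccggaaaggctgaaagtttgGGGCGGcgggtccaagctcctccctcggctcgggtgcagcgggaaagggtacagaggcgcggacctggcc
Evc2 promoter: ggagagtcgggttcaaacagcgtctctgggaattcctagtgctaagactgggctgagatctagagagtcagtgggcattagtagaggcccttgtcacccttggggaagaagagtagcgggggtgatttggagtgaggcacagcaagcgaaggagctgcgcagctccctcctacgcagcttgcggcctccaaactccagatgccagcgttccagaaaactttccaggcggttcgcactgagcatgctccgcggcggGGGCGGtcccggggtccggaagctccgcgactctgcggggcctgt
Each holds GGGCGG once, as do 35.7% of 32851 promoters of this length, Evc holds CCAAT on the other strand (37.4% of promoters hold it), and neither holds TATAAA (13.6%). They have 16 and 19 CG pairs, where the median promoter has 7.

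Evc had 49, 0, 0, 10 and 7 fragments in WT and 190, 319, 232 and 171 in 5A3+/del. The genotypes did not overlap, also when scaled to depth, where the highest WT library had 0.300 FPKM and the lowest 5A3+/del library 0.706. The sums of 66 and 912 give a depth-scaled ratio of 18.6 (exact 95% interval 14.5 to 24.3, counting error only). WT 11 held 49 of the 66, and without it the ratio was 61.7 (38.3 to 106). Without 5A3+/del 12, which held 319 of the 912, it was 15.9 (12.3 to 20.8). Evc2 had 4, 0, 0, 2 and 7 fragments in WT and 23, 109, 148 and 76 in 5A3+/del, a ratio of 36.9 (21.3 to 69.9), again with no overlap. The ratio was 63.0 (28.7 to 173) without WT 15 and 28.5 (16.3 to 54.4) without 5A3+/del 13. In the 2 WT libraries with no fragments, up to 3 fragments per library remain possible.

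On the log2(FPKM + 1) scale, where such low levels are compressed, the log2 fold changes were 0.91 ± 0.22 for Evc and 0.56 ± 0.15 for Evc2 (limma adjusted p = 0.337 and 0.527). With the fragments weighted by limma's voom, both passed (limma adjusted p = 0.00376 and 0.00249), and with a pseudocount of 0.1 Evc2 passed (0.0198) and Evc did not (0.0829). The stem cells showed differences of the same sign, and Evc2 passed in CD150lo HSC (log2 fold change 0.92, limma adjusted p = 0.00352). Evc had 73 to 261 fragments in WT and 370 to 598 in 5A3+/del CD150hi HSC, and Evc2 had 11 to 95 in WT and 136 to 275 in 5A3+/del CD150lo HSC, in both cases without overlap. In CD150lo HSC, Evc had 11 to 426 and 80 to 198, and in CD150hi HSC Evc2 had 302 to 445 and 363 to 610, both with overlap.

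The effect of the deletion in MPP was then set against that in the stem cells with a test of the difference. No gene had an adjusted p under 0.05 for a different effect in MPP than in CD150hi HSC (smallest 0.150) or in CD150lo HSC (smallest 0.213). At an unadjusted p under 0.05 there were 1227 genes (7.96%) and 771 genes (5.00%). The contrasts themselves called 24 genes in CD150hi and 5 in CD150lo HSC, and 13.1% and 6.87% of genes had an unadjusted p under 0.05 there, against 4.27% in MPP. MPP also had the smallest 5A3+/del group, with 4 libraries in place of 5. With library weights, AC127419.1 passed the test of the difference from both HSC populations (limma adjusted p = 0.0389 and 0.0202).

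The 2 genes called outside the interval in MPP were not called in the stem cells. AC127419.1 had log2 fold changes of 0.50 in CD150hi and 0.43 in CD150lo HSC, and its difference of -2.40 from CD150hi HSC was the one with the smallest adjusted p. Gm12104 had 0.25 and -0.47. Among protein-coding genes, Gstm5 differed from CD150lo HSC by 1.48 (unadjusted p = 9.46e-05, limma adjusted p = 0.243), Gdap2 by -1.02 and -0.91 from CD150lo and CD150hi HSC, and Bod1l by -0.95 from CD150hi HSC. Ly6a, Fcer1g, Tie1, Tyms and Tmem176a each had values of one sign in all 3 populations. The populations were sorted from the same mice, so such values do not count as separate evidence.

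**Figure D5:**
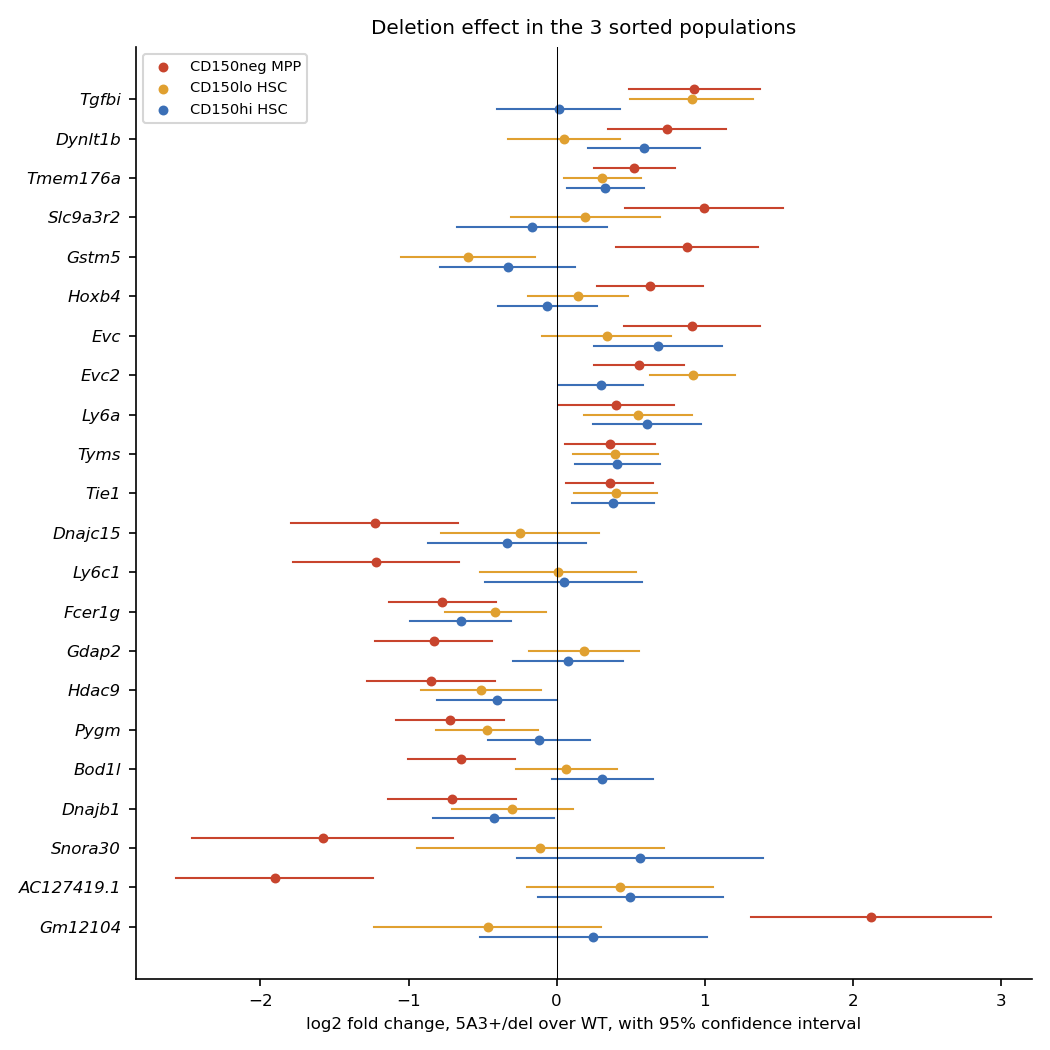
Log2 fold changes of 5A3+/del over WT with 95% confidence intervals for 22 genes in CD150neg MPP (red), CD150lo HSC (yellow) and CD150hi HSC (blue). Tgfbi lies near 0.9 in CD150neg MPP and CD150lo HSC and near 0 in CD150hi HSC, Fcer1g, Tie1 and Tyms have one sign in all 3, and AC127419.1 and Gm12104 lie at -1.90 and 2.12 in CD150neg MPP and between -0.47 and 0.50 in the HSC populations.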

How the data were processed

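RNA of CD150neg MPP, CD150lo HSC and CD150hi HSC from WT and 5A3+/del mice was amplified (NuGEN Ovation) and sequenced with paired ends by the authors. They deposited FPKM values per gene on mm9 for 30025 genes in 29 libraries. The labels' processing notes name Bowtie version 0.12.2 and HTSeq. How FPKM were computed is not given in the sources used here.

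Libraries were grouped by genotype and cell type in the labels. The 15409 genes that reached an FPKM of 1 in 4 or more libraries were transformed as log2(FPKM + 1), quantile normalized and fitted with limma version 3.58.1 in R version 4.3.3, with 6 group means over all 29 libraries. Two-sided contrasts were adjusted by Benjamini-Hochberg with a threshold of 0.05. Normalized FPKM are these values transformed back, and fold changes on this scale understate those of low genes. Near 0 they are set by rank, so fragments recovered from FPKM steps are given for the main low genes (98.6% to 99.0% of values up to 20 fragments were within 0.1 of a whole number). Fragment ratios without single libraries were added after the data were seen. P-values measure the spread between libraries within the 6 groups, pooled over all 29 libraries. Libraries of one mouse in different populations were fitted as independent, also in the tests of the difference. A fit with a correlation between libraries of one mouse (0.079) called 7 genes, 2 of them outside the interval. It called 0 genes for the difference from either HSC population.

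Named genes were those with an adjusted p under 0.05, the 10 higher and 10 lower named genes with the smallest p at 2 normalized FPKM or more, up to 2 per list, the gate genes and markers, and the interval. Genes beyond this rule (Pdlim1, Ctcf, further list members, chromosome 5 neighbours and host genes) were chosen after their values were seen. The comparison and the gene lists were chosen with earlier results of these data known. The scripts were tested on simulated data. Python version 3.11.15, pandas version 2.3.3 and BLAST version 2.17.0 were used.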

Additional observations from a re-analysis of the deposited data

Results flagged for a closer look

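Within each genotype, a library was set apart when its gap to the nearest other library exceeded Dixon's 95% critical value for the range. Of 248 groups, 24 were picked out, where chance gives about 12.4 (1 in 20). No explanation was tested for any of them.

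Library WT 13 had Xist at 319 FPKM, against 0.039 to 0.409 in the other WT libraries, and Y-linked genes at 0.0237 FPKM in sum, against 54.4 to 63.9. The CD150hi and CD150lo HSC libraries of the same mouse had Xist at 303 and 234 FPKM and Y-linked sums of 0.0222 and 0.124 FPKM. Without WT 13, 5 genes were called, of which 1 lay outside the interval. The third value in that library was Cdh5, an endothelial cadherin, at 0.277 normalized FPKM.

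In library WT 11, Evc stood at 0.455 normalized FPKM (49 fragments) and Evc2 at 0.194. Evc2 had 4 fragments there against 7 in WT 15, and the normalized value this close to 0 is set by rank. In WT 11, Dnajb1 was high at 113, and Armc10 (17.9) and Iigp1 (8.44) were low. In WT 12, Mir128-1 (11.4), Hdac9 (4.40), Vcam1 (1.97) and Ctnnb1 (55.9) were high and Mre11a (7.19) low. In WT 15, Tgfbi was low at 5.83 normalized FPKM, B2m low at 3248 and Car2 high at 444.5. B2m was at 3515 in each of the other 4 WT libraries, the value that quantile normalization gives to one rank, so its gap is a shift in rank.

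In library 5A3+/del 11, Asns was low at 1.16 normalized FPKM and Rplp2 low at 154, while Flt3 (57.6), Cd34 (201) and Vcam1 (2.18) were high. Psrc1 was high in 5A3+/del 12 (11.6), Napepld in 5A3+/del 13 (0.453), and Ly6a was low in 5A3+/del 14 (127).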

How the results depend on the processing

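Intervals were widest under 5 normalized FPKM, and the parts of depth, amplification and the number of mice in this were not tested. As reported, 7 genes were called, 2 of them outside the interval, and 0 genes differed in effect from either HSC population. Fitting only CD150neg MPP libraries gave 0 calls (732 genes at an unadjusted p under 0.05), and no filter gave 4 calls, 0 outside the interval, with 30025 genes tested. The calls outside the interval came to 1 with FPKM of at least 10 in 1 library, library weights, no further normalization, a pseudocount of 0.1, or without the mouse of WT 13 in all populations. The difference from CD150hi HSC gave 1 gene and that from CD150lo HSC 1 gene with library weights (AC127419.1), and the latter 1 gene with no filter (AL645623.1). Leaving out single libraries gave 3 to 7 calls, 0 to 2 outside the interval (without WT 12 these were AC127419.1 and Gm16727), and 0 to 1 genes for the difference from CD150lo HSC (Gm12104, without 5A3+/del 14). The fewest calls, 3, came without 5A3+/del 12, 5A3+/del 13 or WT 11, and 4 came without 5A3+/del 11 or WT 15. Voom gave 6 calls, with Evc and Evc2 in place of both genes outside the interval. Other settings stayed within 1.5 times of the reported counts.

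A replicate block on the library numbers left 0 calls, 0 outside the interval (690 genes at an unadjusted p under 0.05). The numbers join different mice, and deviations of same-numbered libraries correlated at 0 to 0.067, none of them highest with its own number, so the numbers do not pair the libraries.

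Over 120 genes and 24 alternatives, no value with an unadjusted p under 0.05 changed sign. The adjusted call was lost in 48 cases and gained in 5, Napepld with the filter on CD150neg MPP (-1.26), Armc10 with library weights (-1.07), Evc2 with a pseudocount of 0.1 (2.14), and Evc and Evc2 with voom (6.18 and 5.72). The causes were not tested.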
